A study of Mus musculus with 16 samples.

Results

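P2ry12, Tmem119, Cx3cr1, Csf1r, Sall1, Siglech, Aif1, Selplg, Gpr34 and P2ry13 are marker genes of homeostatic, or resting, microglia. The 10 genes were taken as a fixed list of names, matched by symbol and Ensembl identifier, and all 10 were found among the 55404 genes of the expression table. The study sequenced total RNA from whole brain, 1 library per mouse, of 8 knock-in mice (Tecpr2 ki/ki) and 8 wild-type mice (wt/wt), all of them untreated males at an age of 5 months. The knock-in, L1152fs in the labels and L1152Yfs in the study's text, is a frameshift in Tecpr2 that was made with CRISPR/Cas9 in C57BL/6J zygotes and is homozygous in the ki/ki mice. The frameshift is present in every cell of the body, so neurons, astrocytes and microglia alike carry it. The value of Tecpr2 itself was 274 to 320 in ki/ki and 928 to 1002 in wt/wt mice, which fits the genotype label of every library.

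Microglia are the resident macrophages of the brain. In the undisturbed brain they survey their surroundings and express a characteristic set of genes, among them purinergic and chemokine receptors, the receptor for the growth factors that keep them alive, and the transcription factor SALL1, which holds their identity. When microglia respond to damage they are known to express genes of phagocytosis, lysosomes and complement, and in strong responses the homeostatic genes often decline, so the homeostatic set is commonly read next to the activated set.

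Values are normalized counts in the form the authors deposited, rounded to whole numbers. Their total per mouse was 11964284 to 12252324, and such totals no longer carry the depth. The reads behind them, estimated from the whole numbers that scaling and rounding skip or repeat, came to 9.23 to 14.26 megareads per ki/ki mouse and 10.09 to 15.39 megareads per wt/wt mouse. Among 120 pairs of libraries, the variance between libraries was 1.34 to 2.05 times that of counting noise, so no pair looked like the same library deposited again. Genotypes were compared with limma on log2(value + 1), so that fold changes of genes with low values are understated. In the whole table, limma's test called 31 of 23244 tested genes (0.133%) at a Benjamini-Hochberg adjusted p under 0.1, 22 of them higher and 9 lower (0.0387%) in ki/ki mice.

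The homeostatic microglia genes were at similar or slightly higher levels in Tecpr2 ki/ki brains, from -2.14% (Aif1) to 15.5% (Siglech) in the means, and limma's test called no member at an adjusted p under 0.1 (0 of 10, against 0.133% of all tested genes). All 10 members passed the filter on low values. Of the members, 9 were at a higher mean in ki/ki mice, where 49.5% of all tested genes had a log2 difference above 0, and the exception was Aif1. The median log2 fold change was 0.09 over the 10 members, compared with -0.00098 over all tested genes. At an unadjusted p under 0.01, P2ry12 passed (1 of 10), as did 1.56% of all genes, and 0.856% in the same direction. At this level 3 of 10 passed without wt/wt mouse 6 and 2 of 10 without ki/ki mouse 1. At an unadjusted p under 0.05, P2ry12, Cx3cr1 and Siglech passed, all 3 of them higher in ki/ki mice, whereas 6.08% of all genes passed in either direction and 3.07% in that direction. Both Cx3cr1 and Siglech lost this level when certain mice were left out. The unadjusted limma p of Cx3cr1 was 0.0603 without ki/ki mouse 3 and 0.0699 without wt/wt mouse 7. For Siglech it was 0.0625 without ki/ki mouse 4, 0.0634 without wt/wt mouse 1 and 0.0654 without wt/wt mouse 3. The genotypes overlapped for each of the 10 members, and 0.086% of all tested genes had values that did not overlap. In bulk RNA of whole brain, more cells of a type and more RNA per cell cannot be told apart.

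**Figure D1:**
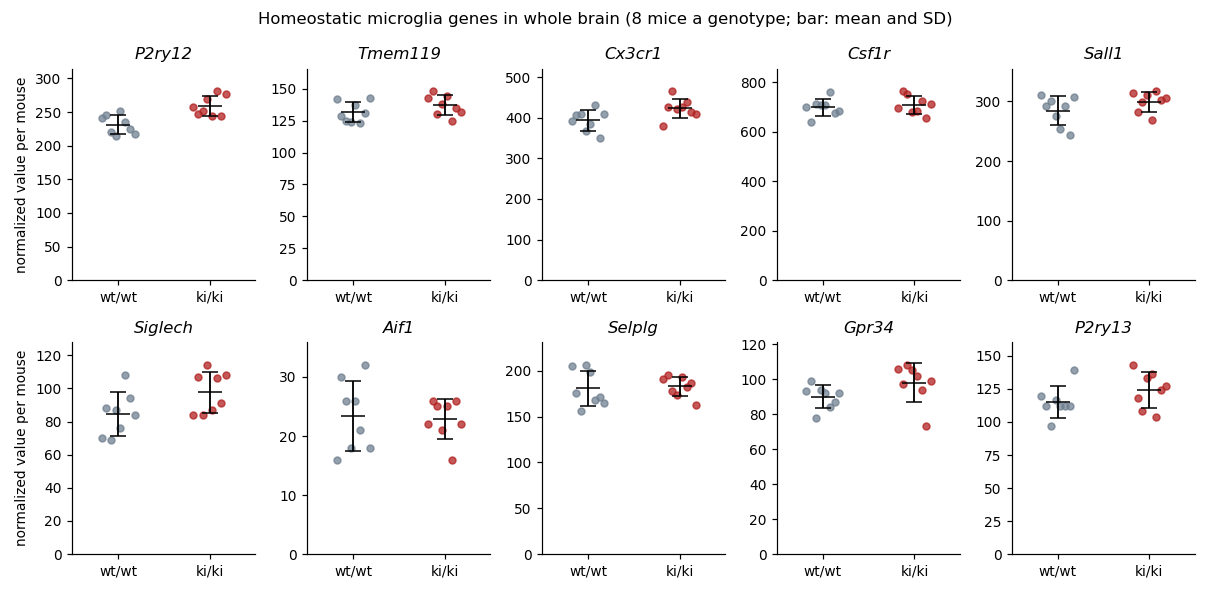
Normalized value (vertical axis, starting at 0) of each of the 10 homeostatic microglia genes in each mouse, with wt/wt mice in grey and Tecpr2 ki/ki mice in red (8 mice per genotype), and with the mean and SD as a black bar. The genotypes overlap in every panel, P2ry12 (244 to 281 in ki/ki, 215 to 251 in wt/wt) with the smallest p, and 1 ki/ki mouse lies low for Gpr34 (73).

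Expressed per kilobase of annotated exon, the scale on which levels of different genes can be set side by side, the members of the wt/wt brain spanned nearly an order of magnitude. Csf1r was highest at 121 ± 6.04 per kilobase (SD, n = 8), followed by P2ry12 at 90.8 ± 5.45 and Cx3cr1 at 87.3 ± 5.83. Tmem119 at 56.9 ± 3.46 and Sall1 at 54.0 ± 4.71 came next. P2ry13 (45.5 ± 4.64), Gpr34 (43.0 ± 3.15) and Selplg (42.3 ± 4.57) formed the middle of the order, and Siglech (24.98 ± 3.84) and Aif1 (15.3 ± 3.90) were lowest. Of the 9 steps between neighbours in this order, those from Csf1r to P2ry12, Cx3cr1 to Tmem119, Sall1 to P2ry13, Selplg to Siglech and Siglech to Aif1 had the same direction in 8 of 8 wt/wt mice (exact two-sided sign-change permutation test, p = 0.00781 for each, the smallest p that 8 mice allow, and 0.0141 after Benjamini-Hochberg adjustment over the 9 steps). The steps from P2ry12 to Cx3cr1 (exact p = 0.203), Tmem119 to Sall1 (exact p = 0.203), P2ry13 to Gpr34 (exact p = 0.0859) and Gpr34 to Selplg (exact p = 0.516) were not told apart by this test. The order was taken from the same 8 wt/wt mice, so the direction of each step was set in advance. The p-values therefore describe how steady a step was over these mice and are not independent evidence for the order. The lengths are those of all annotated exons of a gene and not of the transcript in use.

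P2RY12 and P2RY13 are receptors for ADP, by which microglial processes sense nucleotides released from damaged cells, and their genes lie side by side. In GRCm38, an earlier build than the GRCm39 that the authors aligned to, P2ry12 (ENSMUSG00000036353) occupies chr3:59216272-59262871 and P2ry13 (ENSMUSG00000036362) chr3:59207892-59210882, both on the minus strand and both within the gene Med12l, which runs on the opposite strand. P2ry12 is the member whose difference was largest relative to its error and P2ry13 is its neighbour, so the promoters of this pair are shown. The windows run from 250 bases before to 50 bases after the start of the gene in RefSeq (GRCm38.p6), 5′ to 3′ on the strand of the gene, and the motif AGGAAG is in capitals.
P2ry12 promoter, chr3:59262936-59263235, minus strand: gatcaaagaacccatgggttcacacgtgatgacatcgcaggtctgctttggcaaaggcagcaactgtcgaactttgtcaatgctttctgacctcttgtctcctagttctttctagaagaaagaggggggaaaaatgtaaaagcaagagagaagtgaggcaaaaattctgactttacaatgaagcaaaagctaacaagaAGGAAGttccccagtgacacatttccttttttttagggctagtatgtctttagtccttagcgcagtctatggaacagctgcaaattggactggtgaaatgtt
P2ry13 promoter, chr3:59210833-59211132, minus strand: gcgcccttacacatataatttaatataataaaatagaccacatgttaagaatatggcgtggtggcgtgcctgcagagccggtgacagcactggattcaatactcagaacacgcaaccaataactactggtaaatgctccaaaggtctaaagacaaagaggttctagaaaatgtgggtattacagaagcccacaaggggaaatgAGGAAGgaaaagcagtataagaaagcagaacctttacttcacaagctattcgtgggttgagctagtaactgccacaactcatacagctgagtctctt
AGGAAG is one form of the site bound by factors of the ETS family, to which PU.1 (Spi1), the lineage factor of macrophages, belongs. In a search of both strands it was found 52 bases before the start of P2ry12 and 47 bases before that of P2ry13. Windows of the same length were available for 6 of the 10 members (8 windows, since Sall1 has several), and AGGAAG was found in 3 of the 8, the last being 1 of the Sall1 windows, compared with 35.4% of all 32851 promoter windows. The longer word GAGGAAGT, which contains AGGAAG and stands for the PU.1 site, was found in 0 of the 8 and in 3.2% of all windows. Windows for Tmem119, Csf1r, Selplg and Gpr34 were not used here.

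P2ry12 ranged from 244 to 281 (median 254) among ki/ki mice and from 215 to 251 (median 230) among wt/wt mice. All 8 ki/ki mice were above the wt/wt median and 4 were above every wt/wt mouse, while 6 wt/wt mice were below every ki/ki mouse. The mean was 259 ± 15.1 (SD, n = 8) in ki/ki and 231 ± 13.9 in wt/wt mice, 11.9% higher, with a log2 fold change of 0.16 ± 0.0521 (SE) and a 95% interval of 0.06 to 0.27. In limma's test the unadjusted p was 0.00274 and the Benjamini-Hochberg adjusted p was 0.459. The difference is thus large relative to its standard error for the single gene but is not called among 23244 genes. The exact permutation test of P2ry12 alone gave p = 0.00249 (two-sided). P2ry13 lay between 104 and 143 (median 125.5) in ki/ki and between 97 and 139 (median 112) in wt/wt mice. The 2 ranges largely coincided, with 1 ki/ki mouse above all others. The log2 fold change of P2ry13 was 0.11 ± 0.0765 (SE, 95% interval -0.05 to 0.26) with an adjusted p of 0.902 in limma's test. GPR34 is a receptor for lysophosphatidylserine that is related to the P2Y receptors, and its gene (ENSMUSG00000040229) lies on the plus strand at chrX:13632089-13640858, within Cask on the opposite strand. Gpr34 lay between 73 and 108 (median 100.5) in ki/ki and between 78 and 99 (median 92) in wt/wt mice. In 4 ki/ki mice Gpr34 was above every wt/wt mouse, and the lowest of all 16 mice was also a ki/ki mouse. The log2 fold change of Gpr34 was 0.12 ± 0.0835 (SE, 95% interval -0.05 to 0.28) with an adjusted p of 0.902 in limma's test, and without the lowest ki/ki mouse it was 0.18.

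CX3CR1 is the receptor for fractalkine, a chemokine that neurons present on their surface, and CSF1R is the receptor tyrosine kinase on whose signal microglia depend for survival. Cx3cr1 (ENSMUSG00000052336, chr9:119901616-120069879, minus strand) lay between 379 and 465 (median 424) in ki/ki and between 349 and 430 (median 399) in wt/wt mice. Among ki/ki mice, 7 of 8 were above the wt/wt median and 2 were above all wt/wt mice. Means of 423 ± 24.4 and 393 ± 26.3 (SD, n = 8) gave a log2 fold change of 0.10 ± 0.0437 (SE, 95% interval 0.02 to 0.19), at p = 0.0193 and adjusted p = 0.726 in limma's test and p = 0.0361 in the exact permutation test. Csf1r (ENSMUSG00000024621, on chromosome 18) lay between 654 and 763 (median 703) in ki/ki and between 639 and 761 (median 702.5) in wt/wt mice. Both genotypes covered the same range, and the means of 708 ± 37.3 and 698 ± 34.9 (SD, n = 8) differed by 1.41%. The log2 fold change of Csf1r was 0.02 ± 0.0349 (SE), and its 95% interval of -0.05 to 0.09 corresponds to a fold of 0.966 to 1.06, the narrowest interval among the 10 members. With each mouse left out in turn, this value was lowest without wt/wt mouse 2 (0.0021) and highest without wt/wt mouse 6 (0.0381). Of the exon bases of Csf1r, 15.1% are shared with Hmgxb3 on the opposite strand, whose mean was 502 in ki/ki and 516 in wt/wt mice. Whether the authors counted reads by strand is not given in the sources used here, so reads of these bases cannot be assigned with certainty.

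Siglec-H, a lectin of the Siglec family, PSGL-1 (Selplg), a ligand of the selectins, and TMEM119, a membrane protein of unsettled function, are found on the microglial surface. Siglech (ENSMUSG00000051504, chr7:55768178-55778925, plus strand) lay between 84 and 114 (median 98.5) in ki/ki and between 69 and 108 (median 85.5) in wt/wt mice. There were 3 wt/wt mice below every ki/ki mouse, and 1 ki/ki mouse was above every wt/wt mouse. Siglech had the largest fold change of the 10 genes, with a log2 fold change of 0.21 ± 0.0903 (SE, 95% interval 0.03 to 0.39). In limma's test p was 0.0228 and the adjusted p 0.757, and in the exact permutation test p was 0.0646. Selplg (ENSMUSG00000048163, chr5:113818536-113832644, minus strand) lay between 163 and 195 (median 184) in ki/ki and between 156 and 206 (median 173.5) in wt/wt mice. The wt/wt mice enclosed the ki/ki mice at both ends. Its log2 fold change was 0.02 ± 0.0627 (SE, 95% interval -0.10 to 0.15; limma, adjusted p = 0.982). Tmem119 (ENSMUSG00000054675, chr5:113793729-113800516, minus strand) lay between 125 and 148 (median 136.5) in ki/ki and between 123 and 143 (median 130) in wt/wt mice. Of the mice, 2 ki/ki were above all wt/wt and 2 wt/wt mice below all ki/ki mice, and the log2 fold change was 0.05 ± 0.0672 (SE, 95% interval -0.08 to 0.19; limma, adjusted p = 0.949).

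SALL1 is a zinc finger transcription factor, and AIF1, better known as IBA1, is the actin-binding protein that is stained to show microglia in tissue sections. Sall1 (ENSMUSG00000031665, chr8:89027235-89044162, minus strand) lay between 268 and 317 (median 304) in ki/ki and between 244 and 310 (median 292) in wt/wt mice. The distributions overlapped over most of their length, with 2 ki/ki mice at the top. Sall1 had a log2 fold change of 0.08 ± 0.0511 (SE, 95% interval -0.02 to 0.18) with an adjusted p of 0.893 in limma's test, and 0.05 without wt/wt mouse 7. Aif1 (ENSMUSG00000024397, chr17:35170991-35176068, minus strand) had the lowest values, between 16 and 26 in ki/ki and between 16 and 32 in wt/wt mice, with a median of 23.5 in both. Its log2 fold change was -0.01 ± 0.162 (SE, 95% interval -0.33 to 0.32; limma, adjusted p = 0.998). At this low level a change of Aif1 by a fold of less than 0.796 or more than 1.25 lies outside the interval, whereas smaller changes were not detectable.

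**Figure D2:**
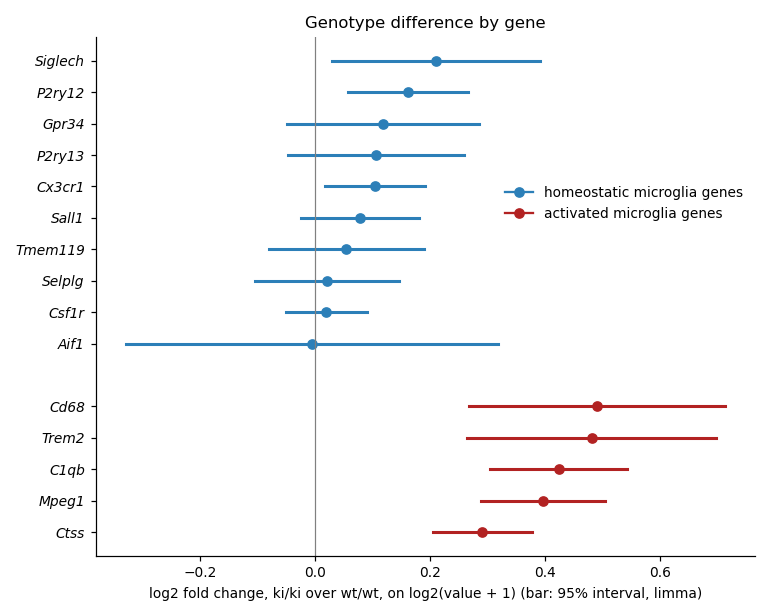
Log2 fold change (ki/ki over wt/wt, horizontal axis) of the 10 homeostatic genes (blue) and of 5 activated microglia genes (red), with the 95% interval from limma as a bar and 0 as a grey line. The homeostatic genes run from -0.01 (Aif1) to 0.21 (Siglech) and the activated genes from 0.29 (Ctss) to 0.49 (Cd68).

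Counted per mouse, ki/ki mice carried slightly more of the homeostatic transcripts. The sum of the 10 members lay between 2250 and 2409 in ki/ki mice (mean 2351 ± 52.7, SD, n = 8) and between 2122 and 2334 in wt/wt mice (mean 2232 ± 63.6). The sums of 6 of 8 ki/ki mice were above that of the highest wt/wt mouse, and the ranges overlapped. Since Csf1r and Cx3cr1 dominate a sum, the mean of the log2 values was also taken, which lay between 7.33 and 7.43 in ki/ki and between 7.23 and 7.35 in wt/wt mice. In each ki/ki mouse 6 to 8 of the 10 genes were above their mean over the 16 mice, and in each wt/wt mouse 2 to 5 were. These values are given as a description without a test, because the members were chosen with earlier results of these data known.

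No pair of members differed from each other past the test's threshold. For each of the 45 pairs of members, the log2 ratio of the 2 genes was taken in each mouse and compared between the genotypes. After Benjamini-Hochberg adjustment over the 45 pairs, 0 pairs had an exact permutation p under 0.05 (smallest adjusted p = 0.835), and at the unadjusted level 1 pair did. This pair was P2ry12 over Csf1r, with a log2 ratio of -1.45 ± 0.108 (SD, n = 8) in ki/ki and -1.59 ± 0.119 in wt/wt mice (exact permutation test, p = 0.0286). The difference in fold change between Siglech at one end and Aif1 or Csf1r at the other was therefore not shown.

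No tested gene on the list of ligands and signalling partners was called. Of 16 ligands and signalling partners of the members, 14 were tested, 7 of them higher and 7 lower in ki/ki mice, and limma's test called 0 at an adjusted p under 0.1 (2 of 14 at an unadjusted p under 0.05, next to 6.08% of all tested genes). Their median log2 fold change was 0.002. The ligands of CSF1R, Csf1 and Il34, had log2 fold changes of 0.09 and -0.05 (adjusted p = 0.877 and 0.924 in limma's test). Cx3cl1, which encodes fractalkine, had a mean of 4718 ± 184 in ki/ki and 4868 ± 157 in wt/wt mice (SD, n = 8), with a log2 fold change of -0.05 (limma, unadjusted p = 0.0307, adjusted p = 0.781), next to 0.10 for its receptor Cx3cr1. The ectonucleotidases Entpd1 (CD39) and Nt5e (CD73), which break down the nucleotides sensed by P2Y receptors, had log2 fold changes of -0.02 and -0.03. Abhd16a and Abhd12, which make and degrade lysophosphatidylserine, had values of 0.01 and -0.04. In the TGF-beta pathway, on which the homeostatic state depends, the log2 fold changes were 0.08 for the ligand Tgfb1, 0.05 and 0.06 for the receptors Tgfbr1 and Tgfbr2, 0.07 for Nrros, which tethers latent TGF-beta on microglia, and -0.01 and -0.02 for the activating integrins Itgav and Itgb8. Tyrobp, the adaptor that signals for Siglec-H and TREM2, which is also on the list of activated microglia, had the largest value here, a log2 fold change of 0.25 with means of 66.5 ± 11.8 and 55.4 ± 6.95 (SD, n = 8; limma, unadjusted p = 0.0226, adjusted p = 0.757).

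Among 10 transcription factors of microglia, 7 were higher and 3 lower in ki/ki mice with a median log2 fold change of 0.07, and limma's test called 0 at an adjusted p under 0.1 (2 of 10 at an unadjusted p under 0.05, next to 6.08% of all tested genes). Bhlhe41, a repressor expressed in microglia and in other brain cells, lay between 457 and 491 in ki/ki and between 403 and 448 in wt/wt mice. The genotypes did not overlap for this gene (log2 fold change 0.13; limma, unadjusted p = 0.00138, adjusted p = 0.329). Mef2c, which neurons express at high levels too, had a log2 fold change of -0.05 (adjusted p = 0.513) and Ikzf1 one of 0.22 (adjusted p = 0.823, both in limma's test).

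A separate list of 18 further homeostatic microglia genes had counts close to those of the members. Of these, 16 were higher and 2 lower in ki/ki mice, the median log2 fold change was 0.10, and limma's test called 0 at an adjusted p under 0.1 (6 of 18 at an unadjusted p under 0.05 and 5 of 18 in the higher direction, next to 6.08% and 3.07% of all tested genes). Their sum lay between 2112 and 2298 in ki/ki and between 1999 and 2137 in wt/wt mice. Among the genes with the smallest p were Cd33, an inhibitory sialic acid receptor (log2 fold change 0.30, adjusted p = 0.135), and Lag3, an immune checkpoint receptor (0.46, adjusted p = 0.225, both in limma's test). Cd33 lay between 100 and 149 in ki/ki and between 95 and 108 in wt/wt mice.

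Unlike the homeostatic list, the list of activated microglia genes held called genes. Of 30 listed genes, 28 were tested, and limma's test found 9 that rose at an adjusted p under 0.1 (0.0946% of all tested genes rose), namely Mpeg1, C1qa, C1qb, C1qc, Ctss, Ctsd, Trem2, Cd68 and Itgax. Itgax had low values, with a mean of 8.75 in ki/ki and 3.375 in wt/wt mice. The list overlaps with genes that the study had already reported on these samples, so its direction is not independent evidence. Its median log2 fold change was 0.27, compared with 0.09 for the 10 homeostatic members. Mpeg1, which encodes the pore-forming protein perforin-2, lay between 263 and 322 in ki/ki and between 198 and 244 in wt/wt mice (log2 fold change 0.40; adjusted p = 1.78e-06 in limma's test). C1qb, a chain of the first complement component, lay between 222 and 286 in ki/ki and between 150 and 217 in wt/wt mice (0.42; adjusted p = 4.72e-06 in limma's test). Ctss, a lysosomal protease, had 408 to 457 in ki/ki and 320 to 394 in wt/wt mice (0.29; limma, adjusted p = 1.58e-05). For all 3 genes every ki/ki mouse was above every wt/wt mouse. Of the 28 tested genes of the list, 5 had no overlap (these 3, C1qa and Ctsd), next to 0 of the 10 homeostatic genes and 0.086% of all tested genes. Trem2, a lipid receptor, and Cd68, a lysosomal membrane protein, had log2 fold changes of 0.48 (adjusted p = 0.0393) and 0.49 (adjusted p = 0.0431, both in limma's test), with overlap between the genotypes.

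**Figure D3:**
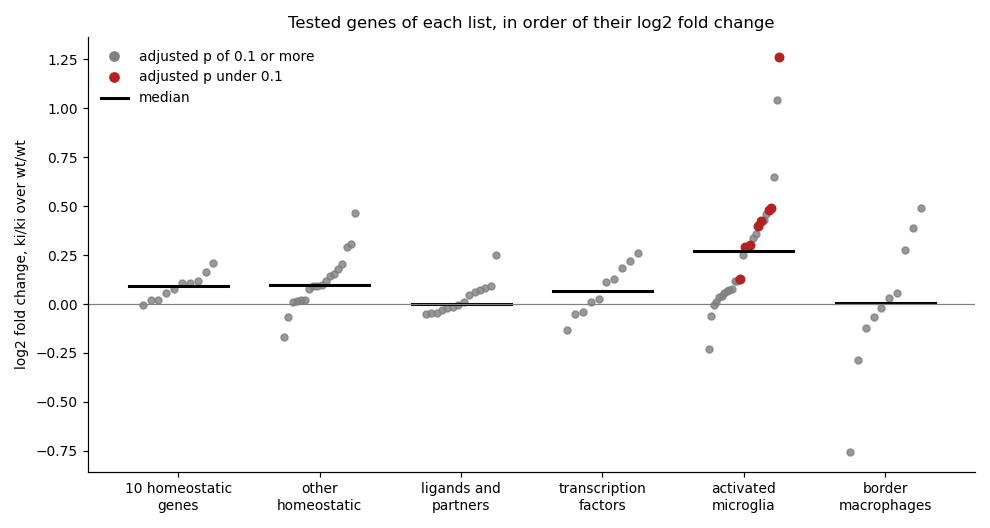
Log2 fold change (vertical axis, ki/ki over wt/wt) of each tested gene in 6 gene lists, with called genes (adjusted p under 0.1 in limma's test) in red, other genes in grey and the median as a black bar. The medians are 0.09 for the 10 homeostatic genes, 0.10 for the further homeostatic genes, 0.002 for ligands and partners, 0.07 for transcription factors, 0.27 for activated microglia and 0.004 for border-associated macrophages, and the activated list holds all 9 called genes.

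In the ratio of an activated to a homeostatic gene within a mouse, the scaling of the library largely cancels. It does not cancel fully, because values were rounded and 1 was added to each before the log2. Mpeg1, Ctss, C1qb, Trem2 and Cd68 were set over each of the 10 members, and all 50 log2 ratios were higher on average in ki/ki mice, by 0.08 to 0.50 with a median of 0.33. Because these 5 genes were picked for being higher in ki/ki mice, the ratios are a description without a test. Relative to Tmem119, Mpeg1 had a log2 ratio of 1.09 ± 0.101 in ki/ki and 0.75 ± 0.125 in wt/wt mice, and C1qb one of 0.87 ± 0.0962 and 0.50 ± 0.166 (SD, n = 8). For both, every ki/ki mouse was above every wt/wt mouse, as was also the case for C1qb over Cx3cr1 and Mpeg1 over Selplg (4 of the 50 ratios). The differences were smallest over Siglech, between 0.08 and 0.28, and next over P2ry12, between 0.13 and 0.33. Over Aif1 they were largest, between 0.30 and 0.50. In the wt/wt mice the spread over Aif1 was also the widest for Mpeg1 (SD 0.466), Ctss, C1qb and Cd68. For Trem2 it was not (SD 0.332 over Aif1 and 0.422 over Siglech).

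**Figure D4:**
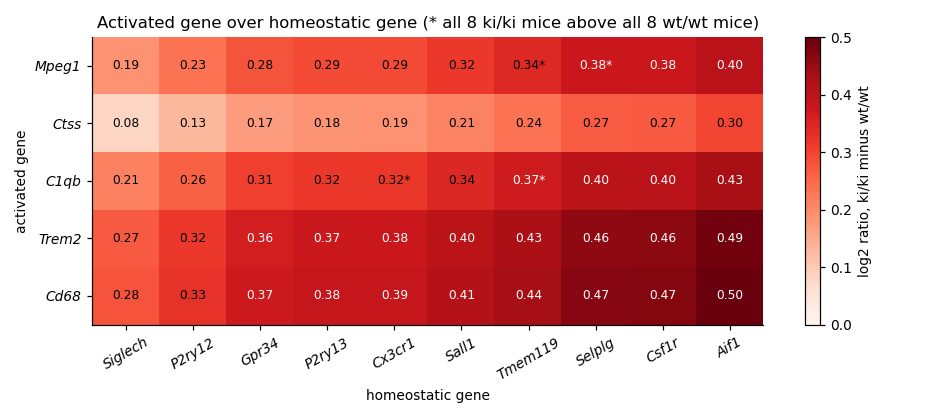
Difference between ki/ki and wt/wt mice in the mean log2 ratio of each of 5 activated genes (rows) to each of the 10 homeostatic genes (columns), shown as a number and by color. All 50 differences are above 0, from 0.08 (Ctss over Siglech) to 0.50 (Cd68 over Aif1), and a star marks the 4 ratios for which all 8 ki/ki mice were above all 8 wt/wt mice.

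Several members are also expressed by macrophages at the borders of the brain and by blood cells, so the markers of these cells were read in the same libraries. Of 11 markers of border-associated macrophages, 10 were tested, 5 were higher and 5 lower with a median log2 fold change of 0.004, and 0 were called in limma's test (2 of 10 at an unadjusted p under 0.05, next to 6.08% of all tested genes). The 3 genes of this list with the smallest p were Pf4 (log2 fold change -0.76, adjusted p = 0.735), Cd163 (0.27, adjusted p = 0.819) and Cd209f (0.49, adjusted p = 0.902, all in limma's test). Pf4 and Cd209f had low values, with means of 3.375 and 5.375 in ki/ki and of 6.5 and 3.625 in wt/wt mice. The sum of all 11 markers lay between 392 and 435 in ki/ki and between 373 and 419 in wt/wt mice, and no marker was at 0 in all mice. Of 10 markers of monocytes, neutrophils and lymphocytes, 2 passed the filter, Ly6c2 (log2 fold change 0.12) and Ccr2 (-0.14), with adjusted p-values of 0.953 and 0.975 in limma's test. The sum of all 10 markers of these cells lay between 36 and 123 in ki/ki and between 43 and 68 in wt/wt mice. Plac8 and Ms4a1 had means below 1. The highest ki/ki values of Ngp, S100a8 and S100a9 were 30, 22 and 21, next to ki/ki medians of 2.5, 1.5 and 2. Platelet markers summed to between 31 and 65 in ki/ki and between 38 and 54 in wt/wt mice, and 2 of 5 were tested, Gp5 (log2 fold change -0.36) and Itga2b (0.14), neither called. Red blood cell genes summed to between 239 and 372 in ki/ki and between 176 and 343 in wt/wt mice, and all 5 had log2 fold changes above 0 without a call, the smallest p-values being those of Hbb-bs (0.34), Hba-a2 (0.17) and Hba-a1 (0.16). The last 2 are near-identical copies, so that the split of reads between them is uncertain.

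Among the other brain cells, 2 of 6 astrocyte markers and 1 of 6 neuronal markers were called, next to 0.133% of all tested genes. Aqp4, the water channel of astrocyte endfeet (log2 fold change 0.14, adjusted p = 3.75e-05), and Slc1a2, a glutamate transporter (0.06, adjusted p = 0.00229), rose in limma's test among 6 markers, of which 5 were higher. The sum of the 6 lay between 55311 and 57587 in ki/ki and between 52365 and 55848 in wt/wt mice, and none was at 0. Slc1a2 dominates this sum, with a mean of 45610 in ki/ki and 43648 in wt/wt mice. Of 6 neuronal markers 5 were lower, and Gad1, which makes GABA, fell (log2 fold change -0.09, adjusted p = 0.0681 in limma's test). The neuronal sum lay between 40982 and 43826 in ki/ki and between 41362 and 45502 in wt/wt mice. Markers of oligodendrocytes (2 of 6 higher), of their precursors (2 of 3 higher) and of endothelial cells (1 of 4 higher) had median log2 fold changes of -0.02, 0.01 and -0.02. In limma's test 0 were called, and 0 of 6, 2 of 3 and 0 of 4 had an unadjusted p under 0.05, next to 6.08% of all tested genes. The smallest p-values in these lists were those of Cnp (log2 fold change -0.04), Mobp (-0.02) and Mag (-0.02) for oligodendrocytes, Gpr17 (-0.14), Cspg4 (0.09) and Pdgfra (0.01) for precursors, and Tek (-0.07), Flt1 (-0.02) and Pecam1 (0.03) for endothelial cells. The part of these shifts in the values of the homeostatic genes was not tested.

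Correlations among the members from mouse to mouse were mostly weak. After subtracting the mean of each genotype, the Pearson correlation of a member with the mean of the other 9 over 16 mice ran from -0.49 for Aif1 and -0.48 for Sall1 to 0.19 for Tmem119 and 0.24 for Gpr34. Among the 45 pairs, 20 correlations were positive with a median of -0.03, the lowest for Sall1 and Aif1 (-0.61) and the highest for Tmem119 and P2ry13 (0.66). The points share libraries and their scaling, and these correlations are a description. The variance between mice over that expected from counting alone, at the estimated depth, was 0.465 for Tmem119, 0.853 for P2ry12, 0.890 for Gpr34 and 1.03 for Aif1, and it was 1.85 for Csf1r, 1.75 for Siglech, 1.57 for Cx3cr1, 1.53 for Sall1, 1.37 for Selplg and 1.33 for P2ry13. The mean of the members had a correlation of 0.15 with the estimated depth, of -0.24 with the mean of the 18 further homeostatic genes, of -0.15 with that of the transcription factors and of 0.10 with that of the activated genes. With markers of other cells it was 0.50 for the 2 tested genes of monocytes, neutrophils and lymphocytes and 0.43 for border-associated macrophages. It was 0.34 for red blood cells, 0.14 for the 2 tested platelet genes, 0.09 for oligodendrocyte precursors and 0.006 for endothelial cells. For astrocytes, neurons and oligodendrocytes it was -0.19, -0.28 and -0.33, and for the ligands and signalling partners -0.29.

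**Figure D5:**
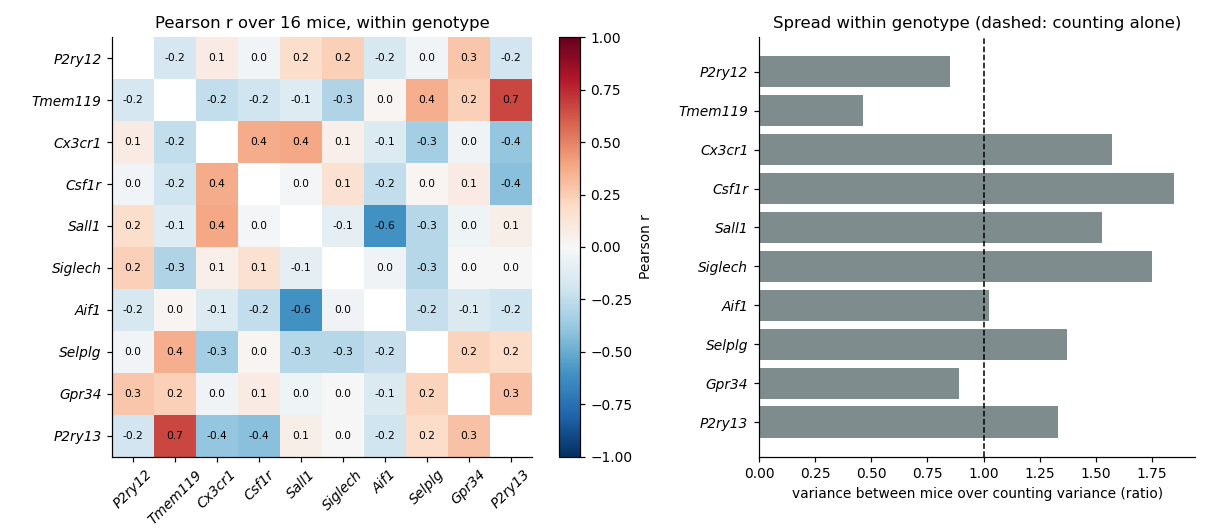
Left, Pearson correlation between pairs of the 10 homeostatic genes over 16 mice after subtracting the genotype means, as numbers and by color. Right, variance between mice of the same genotype over the variance expected from counting (horizontal axis, ratio, bars from 0, dashed line at 1), which runs from 0.465 for Tmem119 to 1.85 for Csf1r.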

How the data were processed

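Total RNA of whole brain from 16 mice was sequenced by the authors as stranded libraries after removal of ribosomal RNA. Per the labels and the methods, reads were trimmed with Trim Galore 0.6.10 and cutadapt 3.4, aligned to GRCm39 with STAR 2.7.10b and counted per gene with summarizeOverlaps, and the authors tested genes with DESeq2 1.40.2. The deposited table gives each gene a score in each mouse, a normalized count on a linear scale rounded to a whole number, whose normalization is not given in the sources used here. Tables of single mice and the table of all mice were identical (16 of 16). A count test was therefore not run, and depth was estimated by maximum likelihood from skipped and repeated low values.

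A gene was tested if the sum of its values was above 16 and if 4 or more mice of either genotype had a value above 5. Log2(value + 1) was fitted with genotype as the only term in limma 3.58.1 (R 4.3.3, trend and robust), and p-values were adjusted by Benjamini-Hochberg across the 23244 genes. For single values, exact two-sided permutation tests over 12870 splits of the mice (smallest p 0.000155) were run in Python 3.11.15 with scipy 1.17.1, numpy 2.4.6 and pandas 2.3.3, and matplotlib 3.10.9 drew the figures. Exact tests were also set for the 50 ratios of activated genes, and are not given because those genes were picked for their difference. Symbols, positions and exon lengths are from GENCODE for GRCm38 (52017 genes had a symbol). Alternatives were the pseudocount, no filter, 2 other scalings, no robust variance, a replicate block and leaving out each mouse.

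The members and lists were chosen with earlier results of these data known. Named are the members, Tecpr2, all tested ligands and partners, the 5 activated genes of the ratios, called genes of the other lists or else their 3 genes with the smallest p, and the 10 genes most like the members. Of the further homeostatic genes, 1 of these 3 is not reported here. Mice are separate animals, and intervals cover the spread between these mice only.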

Additional observations from a re-analysis of the deposited data

Results flagged for a closer look

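In the 8 Tecpr2 ki/ki mice, Gpr34 was at 73 in mouse 7, far below the nearest other ki/ki mouse (94). The gap is 0.6 of the range of the group, above the 95% critical value of Dixon's test for 8 values. The 2 genotypes of the 10 members gave 20 groups, of which this was the 1 marked, and chance marks about 1 in 20 groups. The log2 fold change of Gpr34 was 0.12 with this mouse and 0.18 without it, and without it the unadjusted p in limma's test was 0.0342 and the adjusted p 0.834.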

How the results depend on the processing

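Without the filter on low values, more genes were tested and the variance was fitted anew, and the share of each in the result was not tested. In that setting 20 genes had an adjusted p under 0.1 in place of 31. The split of these calls into higher and lower was 16 and 4 without the filter and 24 and 5 without the robust variance, in place of 22 and 9. Leaving out 1 mouse at a time gave 25 to 40 called genes, 9 to 10 members higher and 1 to 3 members at an unadjusted p under 0.01, with 2 without ki/ki mouse 1 and 3 without wt/wt mouse 6. The log2 fold change of Aif1 turned positive without ki/ki mouse 4 (0.0090) or 6 (0.0621) and without wt/wt mouse 2 (0.0492), 3 or 5 (0.0208 each) or 7 (0.0621), within a range of -0.0746 to 0.0621 when each mouse was left out, and that of Selplg was -0.0073 without wt/wt mouse 3, in a range of -0.0073 to 0.0497. The cause was not tested, and neither gene is called. Of the other members, Cx3cr1 lost an unadjusted p under 0.05 without either of 2 mice and Siglech without either of 3, and Gpr34 gained it without ki/ki mouse 7. No member was called at an adjusted p under 0.1 in any setting, and the adjusted p of P2ry12 lay between 0.345 and 0.691. In the labels, mice of the same number share only that number, and whether they share a batch was not tested. The correlation of deviations between them was -0.04 to 0.15, over 0.1 for 1 of 8. The ki/ki mice 3, 5 and 6 were each most like the wt/wt mouse of the same number. In both genotypes mouse 8 had the lowest estimated depth (9.23 megareads in ki/ki and 10.09 megareads in wt/wt). With the replicate block, 46 genes (29 higher and 17 lower) and 0 members were called. Aif1 had the lowest values of the members and the widest interval.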

Other observations

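Over the 16 mice, after subtracting genotype means, the genes most like the mean of the 10 members were Peg3 (Pearson r 0.84), Ccs (0.82), Gm14399 (0.79), Letm2 (0.79), Zfp781 (0.77), Mpg (0.77), Cyp4f13 (0.76), Bax (0.76), Gm43329 (0.75) and Pfkfb3 (0.75), among 13756 tested genes with a mean of at least 50. Of the genes compared, 5% to 95% lay between -0.46 and 0.42. None of the 10 belongs to a microglia list used here. The points share libraries and scaling, and so many genes over 16 mice give high values at the upper end, so no relation is read from them. Peg3, an imprinted zinc finger gene, had means of 8327 in ki/ki and 8275 in wt/wt mice.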
